A study of Mus musculus with 10 samples.

Results

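The 9 genes described here encode enzymes that take threonine and glycine apart and pass their single carbons to folate and to S-adenosylmethionine (SAM). They are Tdh, Gcat, Gldc, Amt, Gcsh, Shmt1, Mthfd1, Mthfd1l and Mat2a, chosen by name, and they are 9 of the 25965 features measured. RNA-seq was performed on 10 libraries of male C57BL/6 mouse embryonic stem cells (mESCs) from 2 lines, in 5 groups of 2 libraries. All cells were derived under Keniry2022 conditions and kept in 2i/LIF, a serum-free medium with 2 kinase inhibitors and leukaemia inhibitory factor. The p0 group is the cells at the split. The p10 and p20 Keniry2022 groups were then cultured for 10 and 20 passages by the study's modified method, in suspension on untreated plastic in low oxygen, at higher density, with more medium and with daily passaging. The p10 and p20 Mulas2019 groups were cultured for the same numbers of passages by the reference method, on gelatin with longer intervals between passages, which makes p20 Keniry2022 and p10 Mulas2019 equal in days. The methods differ in these points together, so the points cannot be told apart. The study's list of differences also names oxygen and Glutamax, while its methods give the reagents as shared, so whether Glutamax differed in these cultures is not settled.

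Threonine dehydrogenase (Tdh) and Gcat act in turn in mitochondria to split threonine into glycine and acetyl-CoA. The glycine cleavage system, which includes Gldc, Amt and Gcsh, then breaks glycine down and loads its carbon onto tetrahydrofolate. Folate enzymes in mitochondria and in the cytosol carry that carbon to purines, thymidylate and methionine, and Mat2a makes SAM, the methyl donor for histones and DNA, from methionine. Mouse embryonic stem cells are known for high Tdh and for dependence on threonine.

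In cells of both methods these genes were well expressed. With p10 and p20 pooled, 7 of the 9 were called higher under Keniry2022 (Tdh 1.81-fold, Gcsh 1.29-fold), as were 25.9% of all features. In either direction 8 were called, against 51.5% of all features. That count was 5 after quantile normalisation (46% of all features) and 4 in a model of all 10 libraries (19.2%). At p20 alone it was 1 (2.15%). Mthfd1l, the mitochondrial enzyme that releases formate, went the other way at 0.787-fold. Gcat, the enzyme that follows Tdh, did not pass the test. Against the starting cells, Tdh and Gcsh were called lower and Mthfd1l higher in Mulas2019 cells. Of all features, 33% were called there at p10 and 29.3% at p20, so nothing particular to these genes is read from the count. The calls rest on 2 p0 libraries far apart and were lost with library quality weights.

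Library totals worked out from the table lay between 24.05M and 30.24M reads. The 10 naive pluripotency markers were above the filter used for testing (a log2 value above 0 in at least 50% of libraries). Their summed levels were 3371.44 to 4833.34 RPKM (reads scaled to exon length and library total) at p0. They were 2783.91 to 3027.59 RPKM under Keniry2022 and 2586.8 to 2716.76 under Mulas2019. Of 8 fibroblast markers 0 passed that filter, and their sum lay between 1.0 and 3.01 RPKM. For primitive endoderm, 1 of 7 markers passed, with sums of 8.56 to 8.71 RPKM in p10 Mulas2019 and 4.19 to 7.45 in the other groups. For early lineage markers, 3 of 9 passed, with sums of 40.02 to 42.48 RPKM in p10 Mulas2019, 33.66 to 34.2 in p20 Mulas2019 and 26.7 to 31.73 in the other groups. In p10 Mulas2019 most of the early lineage sum was Tfap2c (32.18 and 30.29 RPKM). Most of the primitive endoderm sum there was Lama1 (6.19 and 5.97 RPKM). Single markers went both ways in that group. Nes (6.83 and 5.72 RPKM) and Gata4 (1.01 and 0.77) were highest there, while Cdx2 (0.04 and 0.12) and Dab2 (0.09 and 0.11) were lowest. In these libraries Cdx2 had only 2 and 8 reads and Dab2 16 and 24. The part of these markers' cells in the results was not tested. Summed Y-linked expression was 0.11 to 1.18 RPKM in replicate 1 and 34.19 to 62.77 in replicate 2 of every group except p20 Keniry2022, where it was 49.57 in replicate 1 and 0.36 in replicate 2. The p0 libraries also differed more from each other than the libraries of any other group, with an SD of their log2 difference across features of 0.611, against 0.230 to 0.265 elsewhere.

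Promoters from RefSeq (GRCm38.p6, 250 bases before to 50 after the start) were found for 8 of the 9 genes. Tdh had no entry. The 100 bases before the start are shown for the 3 glycine cleavage genes, because all 3 were higher under Keniry2022, with CG dinucleotides in capitals. Gldc lies on the minus strand (chr19:30175442-30175541), Amt on the plus strand (chr9:108296805-108296904) and Gcsh on the minus strand (chr8:116993499-116993598).
Gldc: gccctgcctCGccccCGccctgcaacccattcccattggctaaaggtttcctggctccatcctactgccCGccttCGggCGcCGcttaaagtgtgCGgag
Amt: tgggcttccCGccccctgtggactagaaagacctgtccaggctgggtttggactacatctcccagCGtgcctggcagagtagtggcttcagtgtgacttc
Gcsh: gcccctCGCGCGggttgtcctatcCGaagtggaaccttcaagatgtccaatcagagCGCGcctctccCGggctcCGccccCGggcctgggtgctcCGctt
These stretches held 7, 2 and 10 CG dinucleotides. TGATGNAA, the form bound by ATF4 with C/EBP, was searched on both strands and was found in 0 of the 8 promoters, against 3.97% of 32851 promoters. CACGTG, an E-box, was found in 1 of 8, Gcat, against 7.15% of all promoters. The Gcat match is shown in capitals in the 30 bases from 10 before to 20 after the start (plus strand, chr15:79030864-79030893).
Gcat: ccctgcccacgtCACGTGacggggagcact
A match is a description of the letters and no measure of binding.

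The genes were among the more abundant features in every library. Mean levels over the 10 libraries were 131 RPKM for Mat2a, 119 for Tdh and 118 for Mthfd1, followed by 73.1 for Amt and 63.0 for Gcsh. Mthfd1l (35.2 RPKM), Shmt1 (34.3), Gldc (32.4) and Gcat (23.8) were lower. The mean log2 levels of the 9 genes stood between the 89.3 and 98.7 percentiles of all features. The order depended on the method. In the 4 Keniry2022 libraries Tdh lay between 143 and 155 RPKM, overlapping Mat2a (139 to 145) and above Mthfd1 (119 to 128). In the 4 Mulas2019 libraries Tdh lay between 74.5 and 87.5 RPKM, below both Mat2a (112 to 131) and Mthfd1 (114 to 116), which overlapped each other.

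**Figure D1:**
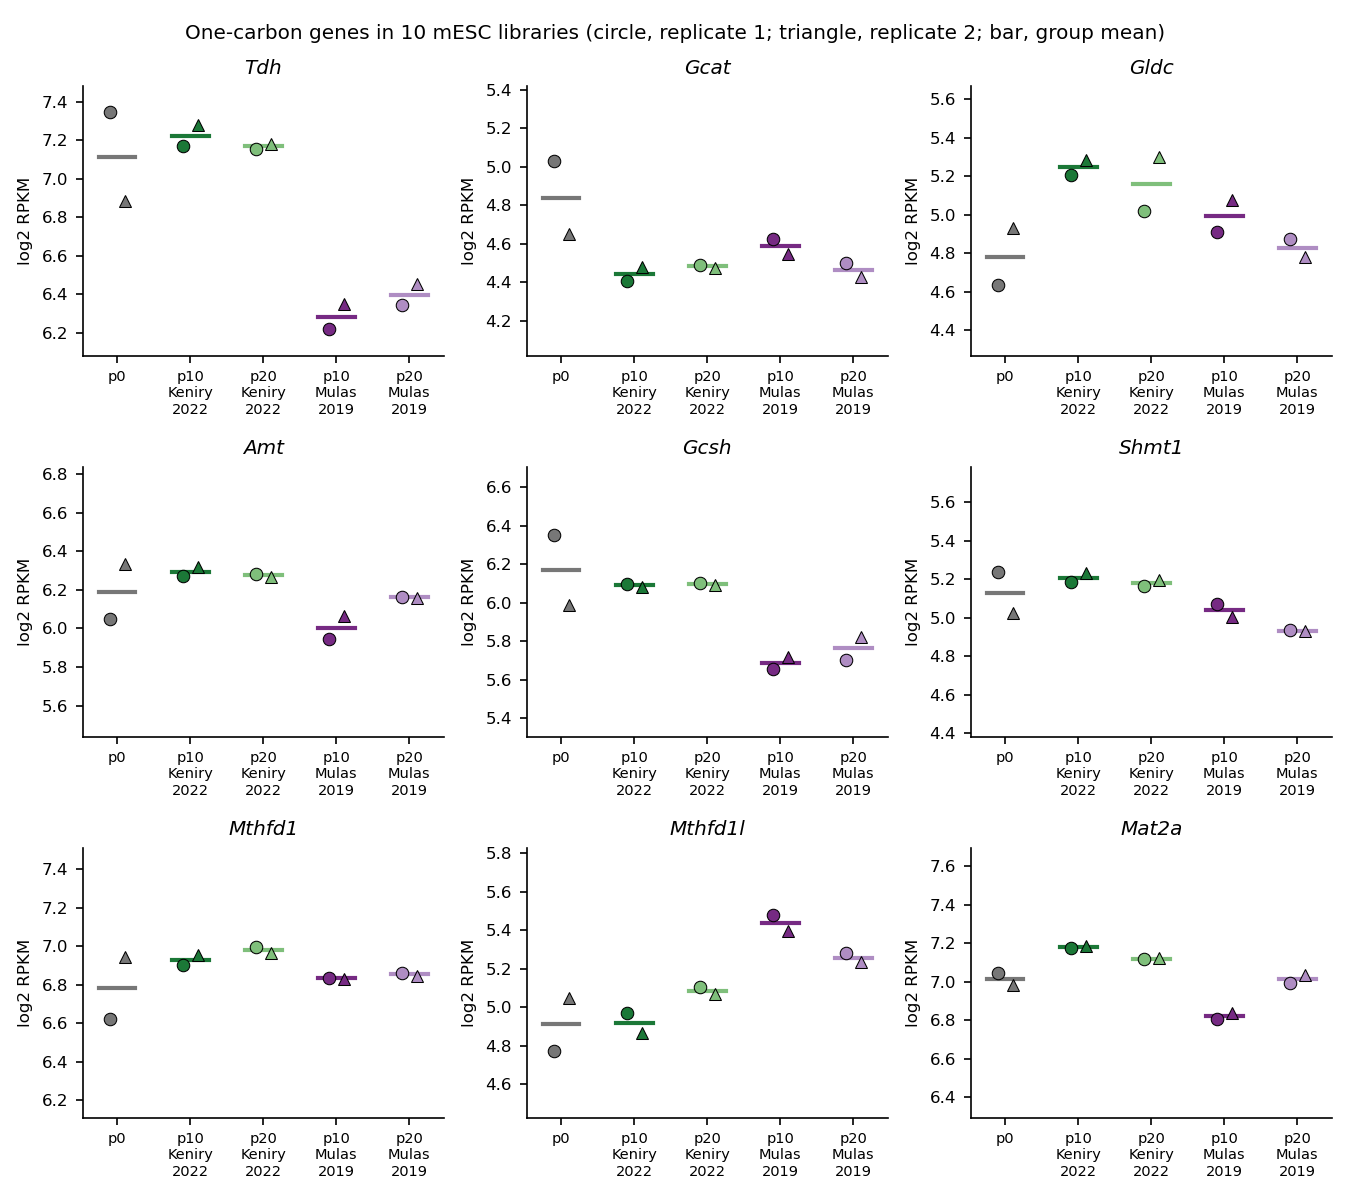
Log2 RPKM of the 9 genes in each of the 10 libraries, 1 panel per gene, with the groups on the x axis, circles for replicate 1, triangles for replicate 2 and bars for group means; every panel spans the same log2 range. Tdh and Gcsh lie lower and Mthfd1l higher in all 4 Mulas2019 libraries, and the 2 p0 libraries lie far apart for most genes.

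The first comparison asked how the methods differ, with p10 and p20 pooled into 4 libraries per method. Of the 9 genes, 8 were called at an adjusted p of 0.05 in limma, where 51.5% of the 11654 features tested were called. Higher in Keniry2022 were 7 (25.9% of all features) and lower was 1 (25.5% of all features). The median log2 difference, Keniry2022 minus Mulas2019, was 0.208 over the 9 genes and -0.003 over all features. In 7 genes the 4 libraries of one method did not overlap those of the other, against 46.5% of all features. Tdh, Amt, Gcsh, Shmt1, Mthfd1 and Mat2a lay wholly higher in Keniry2022 (23.1% of all features), and Mthfd1l lay wholly lower (23.4%). The 4 libraries of a method are 2 lines at 2 passages and not 4 derivations.

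Threonine catabolism was split between its 2 steps. Tdh (chr14:63492347-63509092, minus strand) measured 144 and 155 RPKM in p10 Keniry2022 and 143 and 145 in p20 Keniry2022. It measured 74.5 and 81.4 RPKM in p10 Mulas2019 and 81.3 and 87.5 in p20 Mulas2019. The lowest Keniry2022 library was thus well above the highest Mulas2019 library, and the p0 libraries, at 163 and 118 RPKM, lay on either side of the Keniry2022 values. The log2 difference between the methods was 0.856 ± 0.050 (SE, adjusted p = 1.9e-05), and 2.58% of features had a larger one in either direction. By p-value Tdh stood at rank 3 of all features. Its exons overlap Gm17232, an annotated antisense transcript, whose level stayed 3.01 to 3.24 log2 units below that of Tdh in all 10 libraries. Since the strand setting of the counting is not given, reads of these 2 features cannot be told apart.

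Gcat (chr15:79030874-79043558, plus strand), which turns the product of Tdh into glycine and acetyl-CoA, gave another picture. Its exons overlap those of Galr3 on the same strand, and shared reads cannot be assigned. Gcat measured 21.3 and 22.3 RPKM in p10 Keniry2022 and 22.5 and 22.3 in p20 Keniry2022. The Mulas2019 libraries held 24.7 and 23.4 RPKM at p10 and 22.6 and 21.5 at p20. The methods overlapped, and the log2 difference was -0.062 with a 95% interval from -0.165 to 0.042 (adjusted p = 0.289). At 32.7 and 25.1 RPKM, both p0 libraries were above all 8 later libraries of either method. Within a library, Tdh exceeded Gcat by 2.67 to 2.80 log2 units under Keniry2022, by 1.59 to 2.03 under Mulas2019 and by 2.23 and 2.31 at p0.

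The glycine cleavage genes were higher under Keniry2022, by unequal amounts. Gcsh (chr8:116981810-116993537, minus strand) encodes the H protein, which carries the glycine-derived group between the other subunits. Its levels were 68.4 and 67.8 RPKM in p10 Keniry2022 and 68.8 and 68.1 in p20 Keniry2022, against 50.5 and 52.7 in p10 Mulas2019 and 52.2 and 56.6 in p20 Mulas2019. The 4 Keniry2022 libraries were almost level (SD 0.009 on the log2 scale, n = 4), and every one was above the Mulas2019 libraries. The log2 difference was 0.368 ± 0.038 (SE, adjusted p = 9.04e-05). The p0 libraries, at 81.7 and 63.4 RPKM, again enclosed the Keniry2022 values and lay above the Mulas2019 values.

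Gldc (chr19:30098449-30175418, minus strand), the decarboxylase that starts the reaction, was more variable. It measured 36.9 and 39.0 RPKM in p10 Keniry2022, 32.4 and 39.4 in p20 Keniry2022, 30.1 and 33.7 in p10 Mulas2019 and 29.4 and 27.5 in p20 Mulas2019. The highest Mulas2019 library exceeded the lowest Keniry2022 library, so the methods overlapped, and the log2 difference was 0.292 ± 0.074 (SE, adjusted p = 0.00829). Amt (chr9:108296853-108301571, plus strand), the aminomethyltransferase that hands the carbon to tetrahydrofolate, measured 77.3 and 79.8 RPKM in p10 Keniry2022 and 77.9 and 77.1 in p20 Keniry2022. Its Mulas2019 levels were 61.6 and 66.9 RPKM at p10 and 71.6 and 71.5 at p20. The methods did not overlap for Amt, with a log2 difference of 0.203 ± 0.049 (SE, adjusted p = 0.0061), which was 0.070 and not called after quantile normalisation. Dld, the dehydrogenase that completes the system and also serves other complexes, was higher by 0.378 ± 0.050 (adjusted p = 0.000264).

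Folate enzymes of the cytosol and of mitochondria differed in opposite directions. Shmt1 (chr11:60788104-60811718, minus strand), the cytosolic enzyme that interconverts serine and glycine, measured 36.4 and 37.5 RPKM in p10 Keniry2022 and 35.8 and 36.6 in p20 Keniry2022. It measured 33.7 and 32.1 RPKM in p10 Mulas2019 and 30.6 and 30.5 in p20 Mulas2019. All Keniry2022 libraries were higher, by 0.208 ± 0.040 on the log2 scale (SE, adjusted p = 0.00196). Exons of Shmt1 overlap those of Smcr8 on the opposite strand, and shared reads cannot be assigned. Mthfd1 (chr12:76255232-76319820, plus strand), the cytosolic enzyme with 3 folate activities in 1 protein, was at 119 and 124 RPKM in p10 Keniry2022 and 128 and 125 in p20 Keniry2022. Under Mulas2019 it was at 114 RPKM in both p10 libraries and at 116 and 115 at p20. The gap between the methods was small, with a log2 difference of 0.110 ± 0.031 (SE, adjusted p = 0.014), and it was -0.027 after quantile normalisation. Exons of Mthfd1 overlap those of Gm47525 on the opposite strand.

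Mthfd1l (chr10:3973118-4167081, plus strand) measured 31.3 and 29.1 RPKM in p10 Keniry2022 and 34.4 and 33.6 in p20 Keniry2022. It measured 44.6 and 42.1 RPKM in p10 Mulas2019 and 38.9 and 37.6 in p20 Mulas2019. Every Mulas2019 library was above every Keniry2022 library and above both p0 libraries (27.3 and 33.1 RPKM). The log2 difference was -0.345 ± 0.066 (SE, adjusted p = 0.00185). The mitochondrial partners in the same direction were Shmt2, which makes glycine from serine (-0.617 ± 0.067, adjusted p = 0.000101), and Mthfd2, which oxidises the folate-bound carbon (-0.375 ± 0.071, adjusted p = 0.00167). Mthfd2l, a mitochondrial paralogue of Mthfd2 at 1.47 to 2.85 RPKM, was higher under Keniry2022 (0.527 ± 0.122, adjusted p = 0.00506). Within libraries, Shmt2 exceeded Shmt1 by 1.45 to 1.68 log2 units under Keniry2022, by 2.27 to 2.48 under Mulas2019 and by 1.85 and 1.67 at p0. Mthfd1l lay below Mthfd1 by 1.89 to 2.09 log2 units under Keniry2022 and by 1.36 to 1.61 under Mulas2019.

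Mat2a (chr6:72432799-72439558, minus strand), the catalytic subunit of the SAM synthetase outside the liver, measured 145 RPKM in both p10 Keniry2022 libraries and 139 in both p20 libraries. Its Mulas2019 levels were 112 and 115 RPKM at p10 and 127 and 131 at p20. The methods did not overlap, although the p20 groups were close, and the pooled log2 difference was 0.232 ± 0.052 (SE, adjusted p = 0.00431). After quantile normalisation it was 0.071 and was not called. Mat2b, its regulatory subunit, was higher by 0.261 ± 0.034 (adjusted p = 0.000237). Ahcy, which removes the product of SAM-dependent methylation, was higher by 0.212 ± 0.066 (adjusted p = 0.0222). Mat1a, the liver form, was at 0.01 RPKM in every library and was not tested. Exons of Mat2a overlap those of Particl on the opposite strand.

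**Figure D2:**
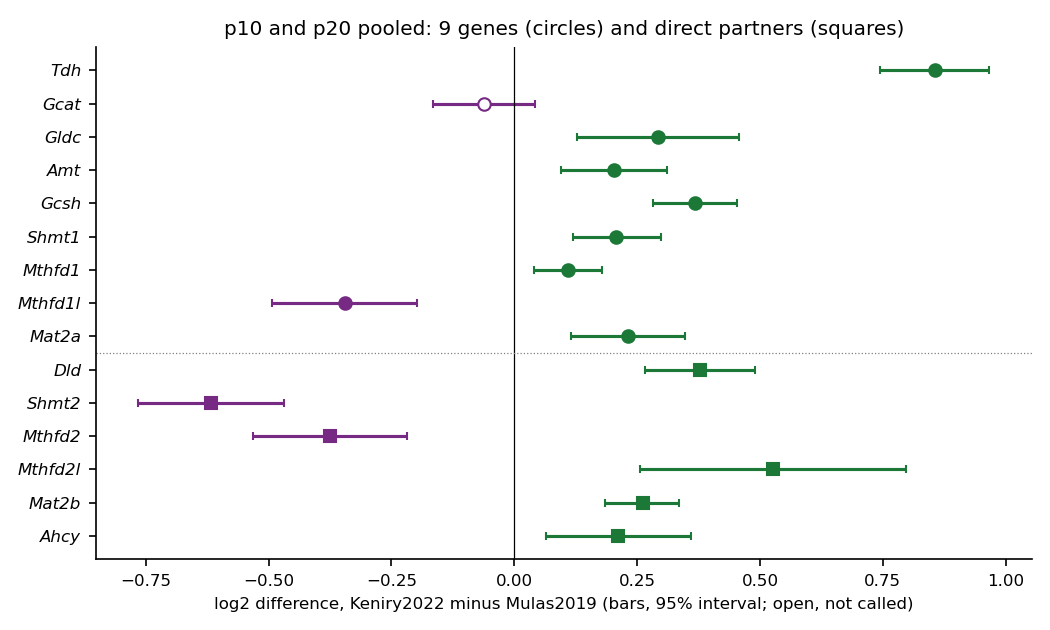
Log2 difference between the methods (x axis, Keniry2022 minus Mulas2019, p10 and p20 pooled, 4 libraries each) for the 9 genes (circles) and 6 partner genes (squares), with bars for the 95% interval and open symbols for genes that were not called. Tdh stands farthest to the right at 0.856, Gcat spans 0, and Mthfd1l, Shmt2 and Mthfd2 lie to the left.

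**Figure D3:**
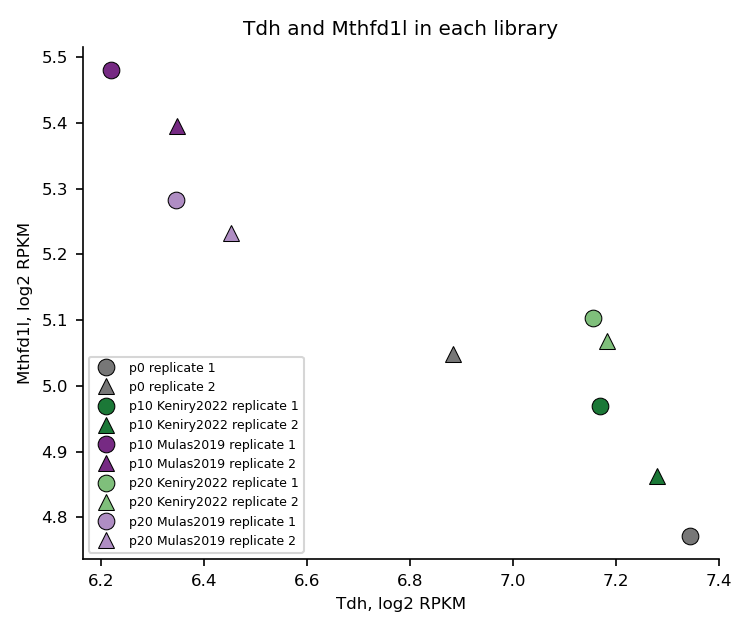
Level of Mthfd1l (y axis, log2 RPKM) against that of Tdh (x axis, log2 RPKM), 1 point per library. The 4 Mulas2019 libraries lie at upper left and the 4 Keniry2022 libraries at lower right, with p0 replicate 1 beyond them. The Tdh level of p0 replicate 2 lies between the methods, and its Mthfd1l level lies within the Keniry2022 range.

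Tdh and Mthfd1l moved apart. Within a library Tdh exceeded Mthfd1l by 2.05 to 2.42 log2 units under Keniry2022 and by 0.74 to 1.22 under Mulas2019. At p0 the excess was 2.57 in replicate 1 and 1.83 in replicate 2.

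Of 59 other genes of one-carbon metabolism, 58 were in the table and 47 were tested. Higher in Keniry2022 were 17 and lower were 13, with a median log2 difference of 0.041, where 25.9% of all features were higher and 25.5% lower. The same shares stand behind the count of each list, and nothing particular to a list is read from its count. Among 7 tested genes of serine and glycine metabolism, 5 were lower. They were Shmt2, the serine synthesis enzymes Phgdh (-0.516 ± 0.078), Psat1 (-0.295 ± 0.066) and Psph (-0.474 ± 0.074), and the glycine transporter Slc6a9 (-1.064 ± 0.102). Dld and the serine racemase Srr (0.203 ± 0.034) were higher. Among 11 genes of the folate cycle, 4 were higher, which included Tyms (0.227 ± 0.051), which makes thymidylate. Lower were 3, which included the mitochondrial dehydrogenase Aldh1l2 (-1.091 ± 0.123). Of 6 purine synthesis genes, 3 were higher (Ppat, Paics and Adsl) and 0 were lower. Gart and Atic, the enzymes of that route that use formyl folate, differed by 0.011 ± 0.034 and 0.058 ± 0.050 and were not called. Of 16 genes of methionine, SAM and polyamine metabolism, 6 were higher and 3 lower, and the polyamine enzymes Sms (0.478 ± 0.061), Srm (0.423 ± 0.049) and Amd1 (0.355 ± 0.052) were highest. Of 5 genes of folate transport and 2 of choline and sarcosine breakdown, 1 was higher and 1 lower in each list. All values are log2 differences with SE.

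**Figure D4:**
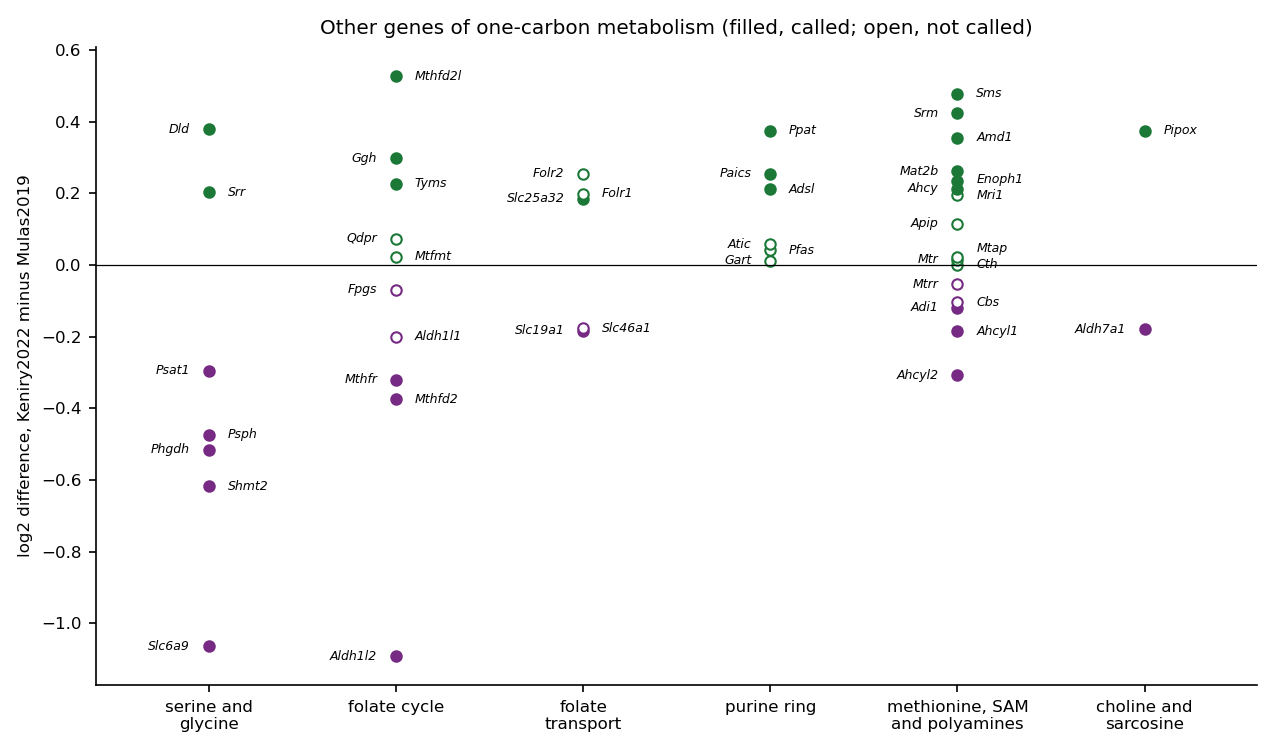
Log2 difference between the methods (y axis, Keniry2022 minus Mulas2019, 4 libraries each) for tested genes in 6 lists of one-carbon metabolism (x axis), filled where called; 1 tested gene of the folate cycle is not drawn. Serine synthesis genes, Shmt2 and Slc6a9 lie below 0, and the purine list lies at or above it.

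At matched passage, tests were made in 1 model of all 5 groups. At p10, 3 of the 9 genes were called, against 8.53% of 11561 features. Tdh was higher under Keniry2022 by 0.941 ± 0.144 (SE, adjusted p = 0.0122), Mat2a by 0.357 ± 0.070 (adjusted p = 0.0253), and Mthfd1l was lower, at -0.521 ± 0.104 (adjusted p = 0.0263). Gcsh had 0.402 ± 0.119 (adjusted p = 0.0767). At p20, 1 of 9 was called, against 2.15% of features. This was Tdh, with 0.770 ± 0.144 (adjusted p = 0.0428). Mthfd1l then had -0.170 ± 0.104 (adjusted p = 0.423) and Mat2a 0.108 ± 0.070 (adjusted p = 0.458). When days of culture were matched, p20 Keniry2022 against p10 Mulas2019, 2 of 9 were called, against 6.43% of features. Tdh differed by 0.885 ± 0.144 (adjusted p = 0.019) and Mat2a by 0.297 ± 0.070 (adjusted p = 0.0491). These counts hang on the p0 libraries, whose spread enters the shared error. Without them 7 of 9 genes were called at p10 (48.3% of all features), at p20 (36.7%) and at matched days (43.4%). Leaving out 1 of the 4 p10 libraries left 0 genes called at p10, and leaving out 1 p20 library left 1. At p20, leaving out any 1 of the 8 later libraries left 0. Over all 19 alternatives Tdh was called at p20 in 6, with log2 differences from 0.612 to 0.823. At matched days 0 or 1 gene was called without any 1 of the 8 later libraries.

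Against the starting cells, the genes in Keniry2022 cells did not pass the test. At p10 and at p20 alike, 0 of 9 were called, with 0.199% of all features called each time. At an unadjusted p under 0.05, 2860 features passed at p10 and 3237 at p20. The log2 changes at p10 ranged from -0.397 ± 0.122 for Gcat (adjusted p = 0.154) to 0.464 ± 0.133 for Gldc (adjusted p = 0.147). In Mulas2019 cells 3 of 9 were called at p10, where 33% of features were called, and the same 3 at p20, where 29.3% were called. Tdh fell by 0.830 ± 0.144 at p10 (adjusted p = 0.0128) and by 0.715 ± 0.144 at p20 (adjusted p = 0.0179). Gcsh fell by 0.482 ± 0.119 at p10 (adjusted p = 0.0248) and by 0.405 ± 0.119 at p20 (adjusted p = 0.0413). Mthfd1l rose by 0.527 ± 0.104 at p10 (adjusted p = 0.0155) and by 0.346 ± 0.104 at p20 (adjusted p = 0.0437). Without p0 replicate 2, 6 of 9 were called in Keniry2022 cells at p10 (64.3% of all features) and at p20 (66.5%), and 8 and 6 in Mulas2019 cells (71.8% and 71.1%). Without p0 replicate 1 the counts were 2 and 0 for Keniry2022 (5.23% and 4.61% of all features) and 5 and 5 for Mulas2019 (40.5% and 37.5%). Without either p10 Mulas2019 library 0 were called at p10, and without either p20 Mulas2019 library 0 at p20, where leaving out any 1 of the other 6 later libraries left 1. With the replicate number as a block, Tdh alone was called at p20 (adjusted p = 0.0252, 27.1% of all features), while Gcsh had an adjusted p of 0.0514 and Mthfd1l of 0.0569. Over 18 alternatives at p20, Tdh was called in 15 and Gcsh and Mthfd1l in 5 each. At p10 the calls held in 15 for Tdh, 12 for Gcsh and 15 for Mthfd1l. The comparisons share the 2 p0 libraries, so they are not independent of each other. With library quality weights, 0 of 9 genes and 0 of all features were called for Mulas2019 at either passage.

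Since the p0 libraries lay apart, each later library was also placed against both of them, with no test. Of 36 values under Keniry2022 (9 genes in 4 libraries), 19 lay between the p0 libraries, 13 above and 4 below. Of 36 under Mulas2019, 13 lay between them, 5 above and 18 below. The 36 values of a method are not independent. Such counts were not made over all features, so nothing particular to these genes is read from them. For Tdh and Gcsh all 4 Keniry2022 libraries lay between the p0 libraries and all 4 Mulas2019 libraries below them. Gldc and Mat2a lay above both p0 libraries in all 4 Keniry2022 libraries. The gap within p0 was larger than the gap within any other group for each of the 9 genes, from 0.065 log2 units for Mat2a to 0.462 for Tdh.

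Between p10 and p20, 0 of 9 genes were called under either method, as were 0% of all features in limma. At an unadjusted p under 0.05, 289 features passed under Keniry2022 and 772 under Mulas2019. Mat2a had the smallest p of the 9 genes, with a log2 difference of 0.190 ± 0.070 between p20 and p10 under Mulas2019 (unadjusted p = 0.0279, adjusted p = 0.627). It was called there without the p0 libraries (2.47% of all features) and with library quality weights (4.43%). Whether the difference between the methods changed with passage was tested as an interaction, with 0 of 9 genes and 0% of features called and 405 features at an unadjusted p under 0.05. The largest terms were 0.350 ± 0.147 for Mthfd1l (unadjusted p = 0.0454) and -0.250 ± 0.100 for Mat2a (unadjusted p = 0.0372), both with an adjusted p of 1.

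**Figure D5:**
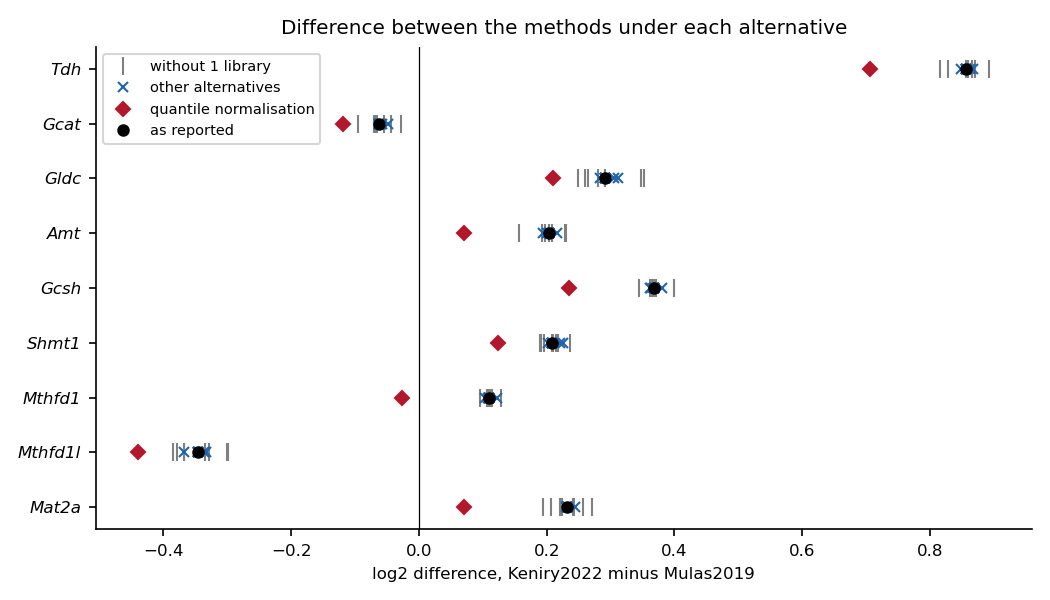
Pooled log2 difference between the methods (x axis, Keniry2022 minus Mulas2019) for each of the 9 genes (y axis) as reported and under 18 alternatives. Quantile normalisation gives the lowest value for every gene and takes Mthfd1 below 0.

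Tdh, Gcsh and Mthfd1l were called in all 18 alternatives of the pooled comparison. Over these, the log2 difference ranged from 0.706 to 0.893 for Tdh, from 0.235 to 0.400 for Gcsh and from -0.439 to -0.299 for Mthfd1l.

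For each gene the features with the most similar pattern were taken among 6199 with a mean log2 level of at least 3, by Pearson's r over the 10 libraries. The libraries share 2 lines and 5 groups, so r is a description. For Tdh these were Nap1l1, a histone chaperone (r = 0.993), N4bp3 (0.990) and Imp4, a ribosome assembly factor (0.990). For Gcsh they were Mrpl51, a mitochondrial ribosomal protein (0.992), Gm13247 (0.989) and Chchd4, a mitochondrial import factor (0.988). For Mthfd1l they were Ndrg1 (0.981), Mprip (0.980) and the glucose transporter Slc2a3 (0.979). For Mat2a they included Cd38 (0.973) and Rarg (0.961), and for Gcat they were Tspo (0.985), Rnh1 (0.972) and Dctn3 (0.969). The closest features were Lrrc47 for Gldc (0.961), Hbp1 for Amt (0.972), Cops7a for Shmt1 (0.954) and Gm16034 for Mthfd1 (0.978).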

How the data were processed

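The authors deposited 1 table of log2 values for 25965 features in 10 libraries. Per the study, reads were trimmed, aligned to mm10 with HISAT2 and quantified in SeqMonk. In the submitters' notes the tools are TopHat2 2.0.12 and bcl2fastq, so the aligner remains unsettled. Annotation release, strand setting and multi-mapping: not given in the sources used here. Although the name says log CPM, floors vary with feature length, so the deposited log2 values are RPKM, with 0 reads entered as 0.9. Totals and whole reads of all 9 genes (tolerance 0.05 reads) were recovered from these floors. Fold changes are on this log2 scale.

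The log2 values were tested with limma 3.58.1 in R 4.3.3 (eBayes with trend, two-sided, Benjamini-Hochberg over all features tested, threshold 0.05). A feature entered a test when 50% or more of its libraries had log2 values over 0. The pooled comparison used 8 libraries without a block, and the others 1 model of 5 groups and 10 libraries. The fit was tested on simulated data. The genes and lists were chosen with earlier results of these data known. Every member is named, and from the other lists its direct partners by rule (Dld, Shmt2, Mthfd2, Mthfd2l, Mat2b, Mat1a, Ahcy). The other named list genes were chosen after their values were seen. The likeness rule took the 3 highest r. A few items are not reported here. Gene coordinates and strands are those deposited with the values. GENCODE vM21 (GRCm38) gave exon lengths and exon overlaps, and promoter positions are from RefSeq. Start sites can differ between these sources. The promoter stretches of Amt and Gcsh thus reach into the deposited gene spans. Replicates are 2 lines per the study. In the pooled comparison p-values measure the spread between 2 lines and passages. In the model of 5 groups they measure the spread between the 2 libraries within groups, p0 included. Alternatives changed scaling, filter, pseudocount (1), weights, block, passage term and libraries. The authors' own edgeR and voom fit was not used here.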

Additional observations from a re-analysis of the deposited data

Results flagged for a closer look

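One value was far from the others of its method. In the 4 Keniry2022 libraries, Gcat was lowest in p10 Keniry2022 replicate 1, at 4.41 log2 RPKM, and the other 3 libraries lay between 4.477 and 4.49. The gap to the nearest of them was 0.844 of the whole range, above Dixon's critical value for 4 samples. Of 18 such groups examined (9 genes under 2 methods) 1 met this rule, and chance gives about 1 in 20.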

How the results depend on the processing

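A fit without 1 library assumes that the lone one of its group varies like the others. All counts here are of the 9 genes, with the share of all features called in parentheses. For the pooled comparison 8 were called in all alternatives except quantile normalisation, with 5 (46%), and the model of 5 groups, with 4 (19.2%). Quantile normalisation turned Mthfd1 to -0.027 and ended the calls of Amt (0.070) and Mat2a (0.071). The model of 5 groups ended those of Gldc, Amt, Shmt1 and Mthfd1 at the same sizes. The cause was not tested. Leaving out 1 library gave 8 throughout (43.6% to 49.3%). At p10, 8 were called with library quality weights (50.9%) and 7 without the p0 libraries (48.3%), and leaving out 1 library gave 0 to 7 (0% to 48.1%). At p20, 0 were called with median centring (1.89%), the log2 filter at 2 (1.12%), no filter (1.46%) or the replicate block (1.25%), 5 with weights (35.3%) and 7 without p0 (36.7%). Leaving out 1 library gave 0 to 7 there (0.00867% to 36.3%). At matched days, 1 was called with quantile normalisation (6.66%), median centring (6.25%), the filter at 2 (4.17%) or the replicate block (4.42%), and 7 with weights (40%) or without p0 (43.4%). Leaving out 1 library gave 0 to 7 there (0% to 43.1%). Against p0, leaving out 1 library gave 0 to 6 for Keniry2022 at p10 (0% to 64.3%) and p20 (0% to 66.5%). For Mulas2019 it gave 0 to 8 at p10 (0.0958% to 71.8%) and 0 to 6 at p20 (0.00872% to 71.1%). The highest values came without p0 replicate 2. Weights gave 0 for both Mulas2019 contrasts (0%), and at p20 no filter (7.61%) or the replicate block (27.1%) gave 1. Between p10 and p20 under Mulas2019, weights (4.43%) or leaving out p0 (2.47%) gave 1, and leaving out 1 library gave 0 to 1 (0% to 2.5%). Keniry2022 drift and the interaction gave 0 throughout.

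Replicate numbers did not pair the groups evenly. Correlations of the replicate difference over 11561 features lay between 0.171 and 0.630, except with p20 Keniry2022 (-0.698 to -0.118). With the replicate block, 8 genes and 5749 features (49.3%) were called in the pooled comparison, and with the numbers of p20 Keniry2022 crossed 8 and 5780 (49.6%). The crossed block gave 0 at p20 (1.35%), 1 at matched days (4.84%) and 1 for Mulas2019 p20 against p0 (25.9%).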
